A study of Daucus carota subsp. sativus with 2 samples.

Results

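Abscisic acid 8'-hydroxylases are cytochrome P450 enzymes of the CYP707 family that break down the plant hormone abscisic acid (ABA). They were taken here as every row of the deposited count table whose protein name holds both "abscisic acid" and "8'-hydroxylase". That rule found 6 of 19838 transcript rows, on 5 carrot locus tags. The rows are CYP707a-1 (DCAR_000714), with the transcripts rna344 and rna346, and CYP707a-2 (DCAR_004535, rna6711), CYP707b-4 (DCAR_020928, rna35414), CYP707c-1 (DCAR_005959, rna8959) and CYP707c-2 (DCAR_007436, rna11374). All 6 carry one protein name, abscisic acid 8'-hydroxylase 4-like, so they differ in the deposited table only by gene name, locus tag and transcript. No other row has CYP707 in its gene name.

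The study compared roots of 2 carrots sold in India (Daucus carota subsp. sativus), an orange hybrid that its title calls modified and a red Delhi carrot that it calls wild. Each variety gave 1 library of poly(A)-selected RNA from untreated roots. The labels state neither the age of the plants nor whether roots were pooled. With 1 library per variety no difference has a replicate check, and every statement below is about these libraries.

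ABA builds up in plants under water shortage and during seed maturation, and it restrains germination and closes stomata. Its level is set by synthesis, in which 9-cis-epoxycarotenoid dioxygenases (NCEDs) cut a carotenoid precursor, and by removal. In removal, CYP707A enzymes add a hydroxyl group to the 8' carbon of ABA, and the product closes on itself to give phaseic acid, which is far less active. In Arabidopsis the family has several members that act in different organs and at different stages, among them the seed and the plant recovering from drought.

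The orange library held 7432754 counts and the red library 11310179. Scaled counts are read counts over the median-of-ratios size factor of the library (0.937 in orange, 1.07 in red). Total-count scaling would move every log2 ratio by 0.42 toward orange and upper-quartile scaling by 0.25, so ratios near equality depend on this choice. The libraries also differed in other tissue markers. The 45 rows of photosynthetic proteins, of which 41 passed the filter on low counts, took 0.314% of counts in orange and 4.28% in red, and 33 were at least 2-fold lower and 3 at least 2-fold higher in orange. The RuBisCO small chain RBCS and 3 chlorophyll a-b binding proteins were at 0 counts in orange, and no row of that list was at 0 in red. Of 9 phloem rows, 5 of the 6 measured were lower in orange and 1 higher, and the rows summed to 0.0497% of counts in orange and 0.312% in red. In the xylem list, of laccases and cellulose synthases, 14 of 21 measured rows were higher in orange and 1 lower. The xylem rows summed to 0.342% of counts in orange and 0.216% in red, and their scaled sums had a ratio of only 1.18. In the root list, mostly expansins, 11 of 18 were higher and 3 lower. The root rows summed to 0.141% of counts in orange and 0.0295% in red, a scaled ratio of 3.58. For comparison, 24.4% of all measured transcripts were past 2-fold toward orange and 30.6% toward red. A row named "Root specific" had 166 counts in orange and 1226 in red, while the major allergen Dau c 1, a carrot root protein, had 637 in orange and 112 in red. In whole tissue, fewer cells of a type and less RNA per cell cannot be told apart, and the part of tissue make-up in the values below was not tested.

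Summed over all 6 rows, the hydroxylases were 1.28-fold lower in orange (1.19 to 1.39), while single members differed from 2.47-fold higher in orange to at least 95.1-fold lower. The sum was 1106 counts in orange and 1615 in red, or 1180 and 1514 scaled counts. As a ratio of orange over red that is 0.780, with a 95% exact Clopper-Pearson interval of 0.722 to 0.842. With total-count scaling the ratio was 1.04 (0.964 to 1.13), so the direction of the sum depends on the scaling. As a share of each library's total the family took 0.0149% in orange and 0.0143% in red. All intervals cover counting error only.

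Of the 5 members with a mean scaled count of at least 10, 1 was at least 2-fold higher in orange with an interval that excluded equality, 2 were at least 2-fold lower, and the other 2 differed by less. Over all 14868 transcripts that passed the same filter, 24.4% were higher in orange by this rule and 30.6% lower, so 1 of 5 and 2 of 5 are near the shares of the whole table. The sixth row, rna346, had too few counts to pass. The median log2 ratio of the 5 was -0.59, beside -0.06 for all transcripts that passed, and is the same with CYP707c-2, which has 0 counts in orange, placed at its bound.

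**Figure D1:**
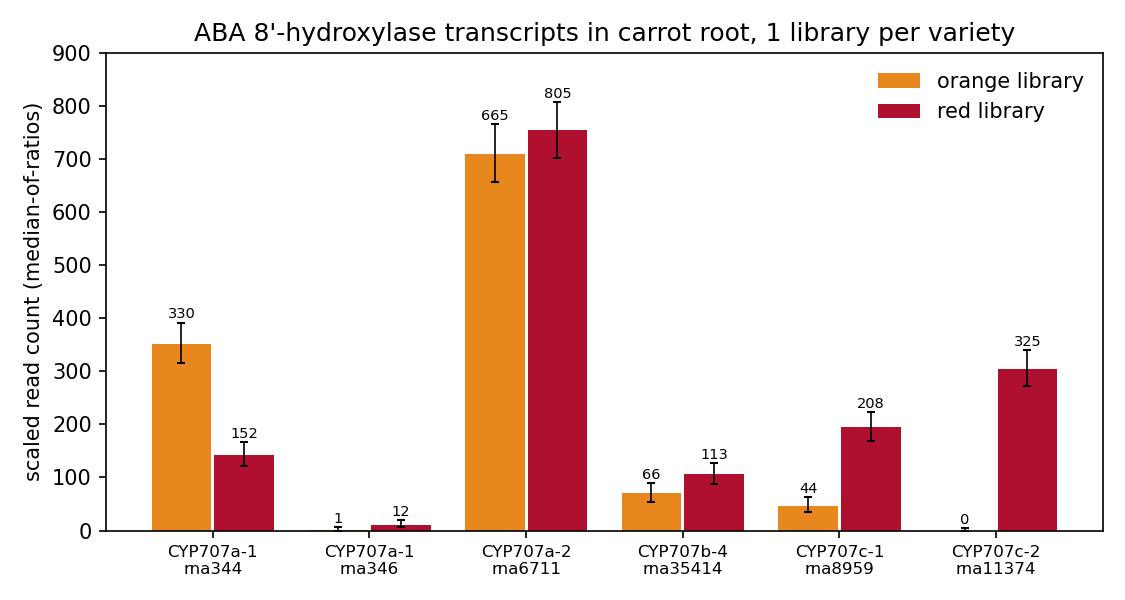
Scaled read counts (y axis) of the 6 ABA 8'-hydroxylase transcripts (x axis) in the orange library (left bar of each pair) and the red library (right bar), 1 library each, with raw counts printed above the bars and 95% exact Poisson intervals as error bars. CYP707a-1 rna344 stands at 352 in orange and 142 in red, CYP707a-2 at 710 in orange and 754 in red, and both CYP707c transcripts stand lower in orange.

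CYP707a-1 was the member with more reads in orange. Its main transcript rna344 had 330 counts in orange and 152 in red, which is 352 and 142 scaled counts. It was 2.47-fold higher in orange, with an interval of 2.03 to 3.02, and it stayed at least 2-fold higher under the 3 other scalings run (log2 1.30 to 1.72).

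The second transcript of the same locus went the other way, on few reads. The row rna346 had 1 count in orange and 12 in red, a 10.5-fold lower level in orange whose interval runs from 1.56 to 451. Set against each other, which needs no scaling, the orange-over-red ratio of rna344 was 26.1 times that of rna346 (95% conditional exact interval 3.77 to 1117). The locus as a whole had 331 counts in orange and 164 in red and was 2.30-fold higher in orange (1.90 to 2.79), so rna346 barely enters its total. Transcripts of one locus can share reads in counting, which makes the split between them less certain than the sum. Of 851 carrot locus tags with exactly 2 rows, 66 (7.76%) likewise had 1 row at least 2-fold higher in each library.

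CYP707a-2 differed least between the libraries with median-of-ratios scaling, and CYP707b-4 with total-count scaling. CYP707a-2 had 665 counts in orange and 805 in red, and 710 and 754 scaled counts. Its ratio of orange over red was 0.941 (0.848 to 1.04), an interval that spans equality and lies within 2-fold on both sides. With total-count scaling its log2 ratio was 0.33 and with upper-quartile scaling 0.16, so its direction depends on the scaling. CYP707a-2 held the most counts of the family in both libraries, though counts here are not divided by transcript length and do not rank the genes by level.

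CYP707b-4 was also under 2-fold. It had 66 counts in orange and 113 in red, or 70.4 and 106 scaled counts. The ratio was 0.665 (0.483 to 0.909), lower in orange in the main scaling, while under total-count scaling its log2 ratio was -0.17 with an interval of -0.63 to 0.28, which spans equality.

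Both CYP707c genes had fewer reads in orange. CYP707c-1 had 44 counts in orange and 208 in red, or 47.0 and 195 scaled counts, and was 4.15-fold lower in orange (2.99 to 5.89). It stayed more than 2-fold lower with every scaling run, at log2 -1.63 with total counts.

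CYP707c-2 had no reads at all in orange. It had 0 counts there and 325 in red, which is 305 scaled counts in red. Against a floor of 3 counts in the orange library it was at least 95.1-fold lower in orange. The 95% exact Poisson upper limit of a count of 0 is 3.94 scaled counts in orange. Of the 2233 transcripts with reads in red and 0 in orange, most had few in red, with a median of 4 counts, and 66 (2.96%) had at least as many as CYP707c-2.

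**Figure D2:**
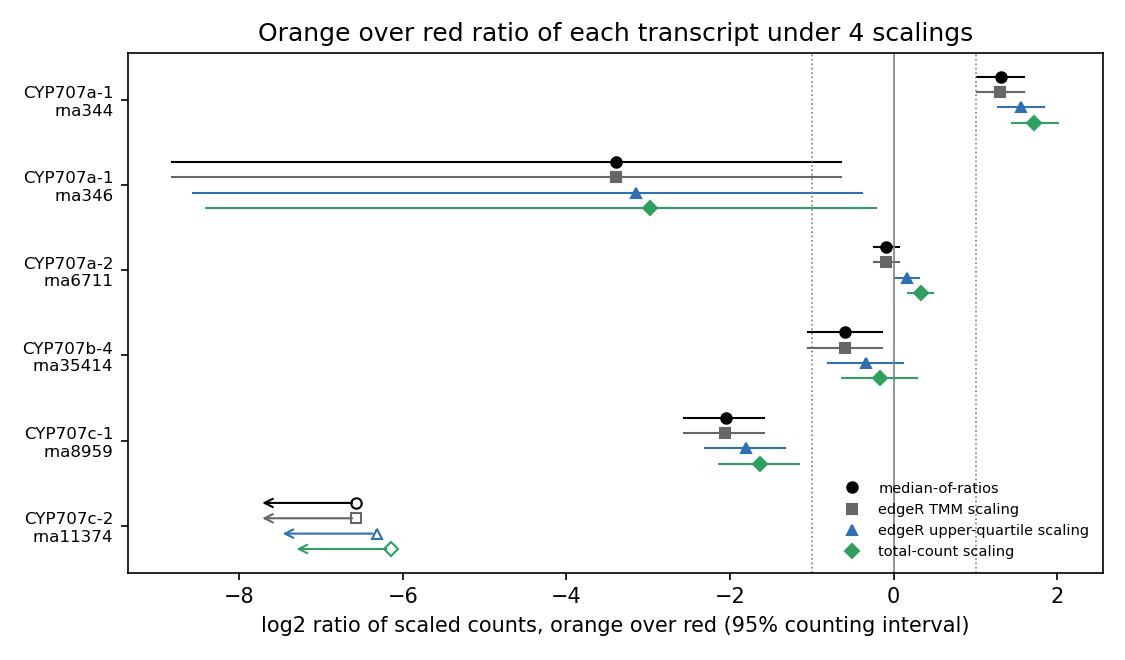
Log2 ratio of scaled counts, orange over red (x axis), of each of the 6 transcripts (y axis) under 4 scalings, with 95% counting intervals as lines; open symbols with arrows are bounds against a floor of 3 counts, and dotted lines mark 2-fold. CYP707a-1 rna344 lies above 1 and both CYP707c transcripts below -1 under all 4 scalings, while CYP707a-2 crosses 0.

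The make-up of the family total needs no scaling, since each share comes from within a library, but a member's share also moves when other members differ. CYP707c-2 supplied 0 of 1106 family counts in orange, with an exact upper limit of 0.333%, and 20.1% in red (18.2 to 22.2). CYP707c-1 supplied 3.98% in orange (2.91 to 5.30) and 12.9% in red (11.3 to 14.6). CYP707a-1 rna344 supplied 29.8% in orange (27.2 to 32.6) and 9.41% in red (8.03 to 10.9). CYP707a-2 supplied 60.1% in orange (57.2 to 63.0) and 49.8% in red (47.4 to 52.3), and CYP707b-4 supplied 66 of 1106 counts in orange (4.64 to 7.53%) and 113 of 1615 in red (5.80 to 8.35%).

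Grouped by the letter in the gene name, a grouping made after the values were seen, the 3 CYP707a rows held 90.1% of the family counts in orange (88.1 to 91.8) and 969 of 1615 counts in red (57.6 to 62.4%). The 2 CYP707c rows held 3.98% in orange and 33.0% in red. Their sum, 44 counts in orange and 533 in red, was 10.6-fold lower in orange (7.82 to 14.8), whereas the CYP707a sum was 1.17-fold higher in orange (1.07 to 1.28).

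**Figure D3:**
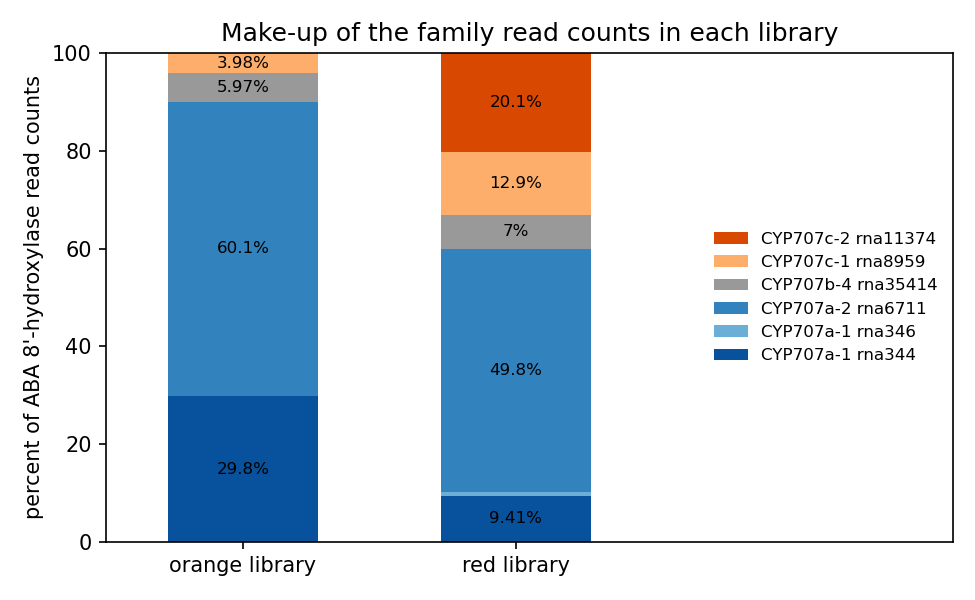
Percent of all ABA 8'-hydroxylase read counts (y axis) supplied by each of the 6 transcripts in the orange library (left) and the red library (right). The CYP707a transcripts hold 90.1% in orange and 969 of 1615 counts in red, and the CYP707c transcripts 3.98% in orange and 33.0% in red.

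Members were also compared with each other by the quotient of their orange-over-red ratios, which is free of scaling. Of 15 pairs, 12 had a 95% conditional exact interval that excluded 1; the pairs share members and are not independent, and the intervals were not adjusted for their number. The 3 that did not all involve rna346, with its few counts. The ratio of CYP707a-1 rna344 was 2.63 times that of CYP707a-2 (2.10 to 3.29) and 10.3 times that of CYP707c-1 (6.94 to 15.3). CYP707a-2 stood 3.91 times above CYP707c-1 (2.76 to 5.62) and narrowly above CYP707b-4, at 1.41 times (1.02 to 1.98). CYP707c-1, though low in orange, stood above CYP707c-2 with a lower bound of 17.5. Members of a family can exchange reads where their sequences are alike, and how alike these are was not measured.

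In the authors' deposited tables, rna344 is listed as UP (fold 2.47), rna346 and CYP707c-1 as DOWN (0.0949 and 0.241), CYP707a-2 and CYP707b-4 as NEUTRAL (0.941 and 0.665), and CYP707c-2 among transcripts of the red carrot only. The authors' deposited table gives CYP707c-2 a p-value of 7.22e-04 and an adjusted p-value of 0.108. For the other 5 rows the p-values in the authors' deposited tables run from 0.289 to 0.960, with adjusted values of 1. Of all rows, 20.5% are listed in the authors' deposited tables as UP, 23.0% as DOWN, 37.1% as NEUTRAL and 11.3% as red only, and 6.04% have a p-value of at most 0.05. The sources used here do not say how the spread was set with 1 library per variety.

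Of 10 rows of ABA synthesis, 7 passed the filter, with 5 lower in orange by at least 2-fold, 1 higher, and a median log2 ratio of -1.71. The shares over all measured transcripts were 30.6% lower and 24.4% higher in orange. The 8 NCED rows, which include the related NCED4-CCD4, held 915 counts in orange and 3721 in red. NCED3 had 238 counts in orange and 2662 in red, and NCED-2 (50 in orange, 188 in red), NCED1 (87 in orange, 230 in red) and NCED4-CCD4 (15 in orange, 638 in red) leaned the same way. NCED-9 ran opposite to them, with 520 counts in orange and 0 in red. Upstream, zeaxanthin epoxidase (ZEP), which makes the violaxanthin precursor, had 210 counts in orange and 6464 in red. Neoxanthin synthase (NSY-1) had 134 in orange and 210 in red, under 2-fold. Among measured rows, each group had one gene with reads in a single library, NCED-9 in orange and CYP707c-2 in red.

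Set against the hydroxylases in the same library, there were 0.827 NCED counts per hydroxylase count in orange and 2.30 in red. The quotient was 2.78-fold lower in orange (2.50 to 3.10) and does not depend on scaling. Without NCED4-CCD4, which belongs with enzymes that cut other carotenoids, it was 2.35-fold lower (2.11 to 2.61). In that smaller set NCED3 supplied 238 of 900 counts in orange and 2662 of 3083 in red. NCED-9 supplied 520 in orange and 0 in red, so the direction of the second quotient rests on NCED3. The first quotient leans on NCED3 as well, which supplied 238 of its 915 NCED counts in orange and 2662 of 3721 in red. Both quotients are of read counts and say nothing of enzyme activity or of ABA itself, neither of which was measured.

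Few rows matched the name patterns used for ABA perception and signalling, since most rows of the table are called uncharacterized. Of 3 measured rows, 2 stood at least 2-fold higher in orange, none (0) lower, with a median log2 ratio of 1.05, beside 24.4% higher and 30.6% lower over all measured transcripts. The kinase row named SRK2A (rna18724) had 86 counts in orange and 47 in red and was 2.08-fold higher in orange (1.44 to 3.04). Whether this kinase takes part in ABA signalling in carrot was not tested. A gamma subunit of the SNF1-related kinase (rna34186), which belongs to energy sensing more than to ABA, had 4696 counts in orange and 462 in red, 11.6-fold higher in orange (10.5 to 12.8). A row named protein phosphatase 2C/pyruvate dehydrogenase (lipoamide) phosphatase (rna14563) had 26 counts in orange and 32 in red, a ratio of 0.925 (0.530 to 1.60). These 3 rows are matches to name patterns, and their names alone do not place them in ABA perception. No row was named for an ABA receptor, an ABA glucosyltransferase, a dehydrin or a late embryogenesis abundant protein.

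The G-class ABC transporter AB35G, of a family with ABA carriers in Arabidopsis, had 2955 counts in orange and 6172 in red in its main row (rna11605), 1.83-fold lower in orange (1.76 to 1.92). Its second row, rna4065, had 11 counts in orange and 1 in red and did not pass the filter.

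The P450 partners found were 3 NADPH-cytochrome P450 reductases, which hand electrons to P450s, and 1 NADH-cytochrome b5 reductase. None (0 of 4 measured) was past 2-fold in either direction, beside 24.4% higher and 30.6% lower in orange over all measured transcripts. So few rows say little of the partners as a group. Of the 3 NADPH-cytochrome P450 reductases, rna28486 had 2409 counts in orange and 1562 in red, a ratio of 1.76 (1.65 to 1.87). The reductase rna22316 had 728 counts in orange and 648 in red, a ratio of 1.28 (1.15 to 1.42). The third, rna36710, had 375 counts in orange and 806 in red, a ratio of 0.530 (0.467 to 0.600), so the reductases did not all lean one way. NADH-cytochrome b5 reductase (rna14454) had 264 counts in orange and 303 in red, a ratio of 0.992 (0.838 to 1.17). With total-count or upper-quartile scaling 1 of the 4 rows was at least 2-fold higher in orange.

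**Figure D4:**
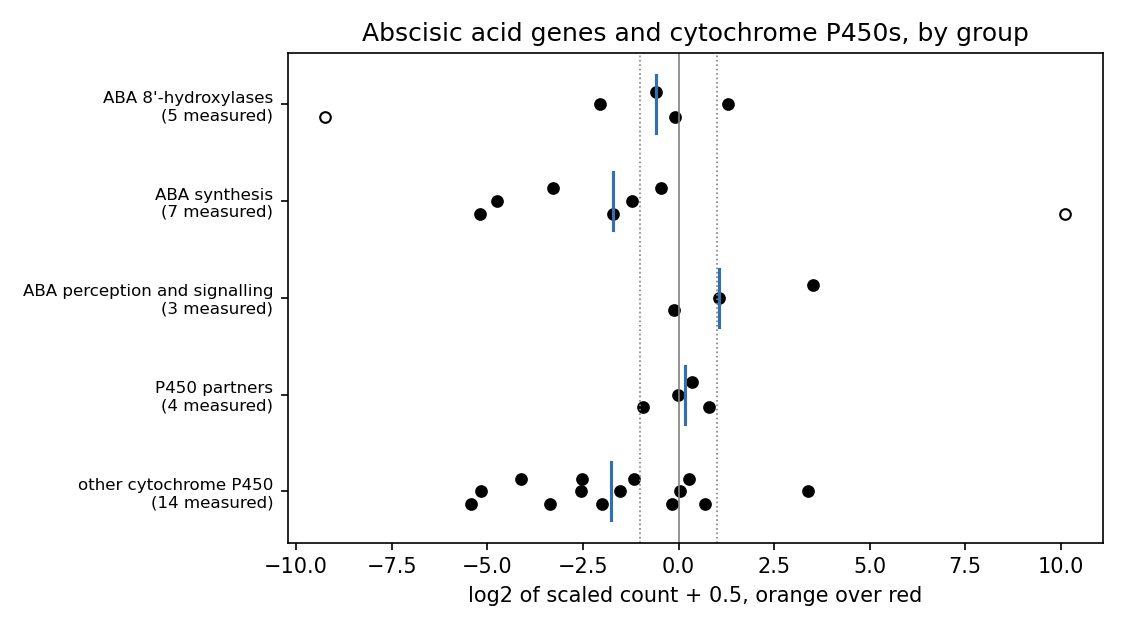
Log2 of scaled count plus 0.5, orange over red (x axis), of each measured transcript in 5 groups (y axis); open circles have 0 counts in one library, blue bars are group medians and dotted lines mark 2-fold. The hydroxylases have a median of -0.59 and ABA synthesis -1.71. The 3 rows matched by name to ABA signalling have 1.05, the P450 partners 0.17 and other cytochrome P450s -1.76.

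By the log2 ratio of the summed family (-0.36), the nearest of 611 informatively named transcripts with a mean count within 2-fold of it were an acetyltransferase of the pyruvate dehydrogenase complex (rna42221, 817 counts in orange and 1193 in red), an Exo70 exocyst subunit (rna9579, 824 and 1201) and a lipoxygenase (rna33261, 566 and 823). With 2 libraries this likeness is that of a single ratio.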

How the data were processed

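Root RNA was poly(A)-selected and sequenced as 1 library per variety, and each library's variety was taken from its title. Tools named without version or role are HISAT, HTSeq, DESeq, FastQC and cutadapt, per the submitters' processing notes. No source used here gives the build or annotation. The authors deposited read counts per transcript. The deposited normalised counts, a signal, were found to be the read count times 1.07 in orange and 0.937 in red. The authors' comparison tables give a fold, the ratio of orange over red, its log2, and a p-value and adjusted p-value per transcript, per the file headers.

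Counts were scaled by median-of-ratios size factors computed over the whole table (Python 3.11.15, numpy 2.4.6, scipy 1.17.1, pandas 2.3.3); edgeR 4.0.16 in R 4.3.3 gave the TMM and upper-quartile alternatives. Log2 ratios printed as medians use a pseudocount of 0.5; folds and intervals use none. A transcript was measured when its mean scaled count reached 10, and a filter on the mean keeps a transcript seen in 1 library only. Intervals of ratios are 95% exact Clopper-Pearson intervals of the pair of counts, and a count of 0 is replaced by a floor of 3 for a bound; both cover counting error only. The planned comparison had no test, since 1 library per variety leaves no spread to estimate. The procedure was tested on simulated counts with counting error only and 200 changed transcripts. In the data 3631 of 14868 measured transcripts were past 2-fold toward orange and 4546 toward red. The simulation therefore does not show how the scaling behaves with so many differences, nor the spread between roots. The 160 rows with no protein name held 0.827% of counts in orange and 1.27% in red; they have transcript identifiers and were kept.

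The members and the gene lists, which are patterns on protein names, were chosen with earlier results of these data known. Named are all hydroxylase rows, up to 12 measured rows of each ABA list and 6 of P450 partners, and the 3 transcripts nearest to the summed family; other rows named were chosen after their values were seen. None (0) of the 5 locus tags was found in the reference gene table (assembly DH1 v3.0), so no coordinates or sequences are given.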

Additional observations from a re-analysis of the deposited data

How the results depend on the processing

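The log2 ratio of the summed hydroxylases was -0.36, and it was 0.06 with total-count scaling, -0.11 with upper-quartile scaling and -0.69 without CYP707a-2, the member of highest mean; with TMM scaling and a pseudocount of 1 it moved by less than its counting interval. The counts of members past 2-fold were 1 higher and 2 lower in orange. At a 4-fold threshold the count higher in orange was 0; every other setting run (3 scalings, no filter or a minimum mean of 50, a 1.5-fold threshold) kept both counts within 1.5 times. Of 24 values of single members under other settings, 21 stayed within the main counting interval and 3 moved, which were CYP707a-1 rna344 with total counts (1.72) and CYP707a-2 with total counts (0.33) and upper quartile (0.16); no member called 2-fold different turned round. No paired analysis was possible because each variety has 1 library, and for the same reason no library could be left out. Depth limits rna346, whose interval spans 1.56 to 451.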

Other observations

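The other cytochrome P450s named in the table were lower in orange more often than higher. Of 23 rows 14 passed the filter, of which 8 were at least 2-fold lower in orange and 1 higher, with a median log2 ratio of -1.76. The shares over all measured transcripts were 30.6% and 24.4%. With no filter on low counts, 9 were lower in orange and 4 higher, and shares over all transcripts without the filter were not computed. The rows this added have few counts. Toward orange they were rna18446 (13 in orange, 1 in red), rna3662 (10 and 1) and rna18169 (8 and 1). Toward red it was rna24586 (1 in orange, 12 in red). Over all 23 rows the summed counts were 2562 in orange and 7568 in red. CYP97A, a carotenoid hydroxylase of the plastid, had 53 counts in orange and 2618 in red. A CYP86B1-like row (rna23794), of a family that hydroxylates long fatty acids, had 4 counts in orange and 88 in red. Measured rows with the protein name CYP72A398, which carry no gene name, went both ways. The row rna24585 had 73 counts in orange and 479 in red, and rna26880 had 198 in orange and 21 in red. These rows were chosen after their values were seen. The photosynthetic rows were lower in orange as well, and their part in these differences was not tested.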
